A study of Homo sapiens with 12 samples.

Results

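The genes of the centriole and the centrosome were followed through 4 exposures of SU-DHL-4, an established cell line of diffuse large B-cell lymphoma (DLBCL). The set comprised every symbol of the count table that starts with CEP and a digit, without pseudogenes and antisense RNAs, together with LRRCC1, PLK4, SASS6, STIL, CENPJ, CCP110, CNTROB, PCNT, CDK5RAP2 and HAUS1 to HAUS8, at a minimum of 10 counts summed over the 12 libraries. It held 56 of the 46863 symbols of the table. All 56 symbols matched by name passed the minimum, the nearest to it being CEP295NL with 11 counts and CEP70 with 17 counts. The choice was made from measured values in one respect: LRRCC1, a protein of the distal lumen of the centriole, prompted it by its level with Ento+AZD, so LRRCC1 is described below without a test. The other genes entered by name and by their summed count, irrespective of the exposure.

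Polyadenylated RNA was sequenced after 72 h of exposure to the solvent DMSO, to 1 µM Entospletinib (Ento), which inhibits the spleen tyrosine kinase SYK downstream of the B-cell receptor, to 0.01 µM AZD5153 (AZD), which binds bromodomains of the BET proteins bivalently, or to Ento+AZD at these concentrations. Each group comprised 3 libraries of the same cell line, for which no genetic modification is described, numbered 1 to 3 in every group. The paper's methods speak of biologically independent samples for its statistics in general, whereas the labels do not name the cultures behind these numbers, so p-values measure the spread between these libraries. The question addressed is which RNAs changed with each agent, with both agents together, and with both agents relative to each single agent.

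Centrioles are short cylinders of microtubules that are copied once in each cell cycle and organize the pericentriolar material from which microtubules grow. In dividing cells a pair of centrosomes forms the poles of the spindle, and in resting cells the older centriole can anchor a cilium. B cells are known to move the centrosome towards the site at which the B-cell receptor meets antigen on another cell.

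Total counts per library lay between 18121993 and 24675830, so that 1 count equalled 0.0393 to 0.0564 CPM (read counts scaled to a common library size). The B-cell identity of the line was visible in all 8 B-cell markers, with a summed level of 4675 to 8603 CPM over the libraries. Of 12 markers of other cell types, CD3D, CD2, KRT18 and COL1A2 had no count in any library, and the summed level of all 12 was 12.3 to 88.6 CPM, nearly all of it PECAM1 with 33.9 CPM in the mean with DMSO. Markers of cycling cells (12 genes, among them MKI67, TOP2A and CCNA2) summed to 2491 to 3904 CPM with DMSO, 1235 to 3448 CPM with Ento, 1038 to 2470 CPM with AZD and 510.3 to 1832 CPM with Ento+AZD. Replicate 2 had the lowest sum of these markers in every group. In bulk RNA, fewer cycling cells and less RNA per cell cannot be told apart.

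The sequences before the transcription start of 4 genes are shown because their RNAs moved differently: PLK4 and CEP55 were among the genes with the largest decreases with Ento+AZD, CEP162 fell moderately, and CEP126 was not called lower by either exposure to AZD when compared with DMSO. They are the 250 bases before the start listed by RefSeq on GRCh38.p14, at chr4:127880643-127880892 (plus strand) for PLK4, chr10:93496362-93496611 (plus) for CEP55, chr6:84227644-84227893 (minus) for CEP162 and chr11:101914760-101915009 (plus) for CEP126, each next to the annotated first exon of its gene. Capitals mark matches to words known from promoters of cell cycle genes, searched on both strands. The cell cycle homology region (CHR) was searched as TTTGAA and as the variant of this element that is spelled TTCGAA. The box bound by NF-Y was searched under its usual name CCAAT, and the E2F word as TTTGGCGC, TTTGCCGC, TTTCGCGC or TTTCCCGC. No word of one kind can lie inside a word of another.
PLK4: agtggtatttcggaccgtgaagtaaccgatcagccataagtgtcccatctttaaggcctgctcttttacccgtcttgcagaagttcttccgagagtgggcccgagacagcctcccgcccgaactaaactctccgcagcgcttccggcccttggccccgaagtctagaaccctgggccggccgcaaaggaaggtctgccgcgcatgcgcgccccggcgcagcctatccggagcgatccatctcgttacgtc
CEP55: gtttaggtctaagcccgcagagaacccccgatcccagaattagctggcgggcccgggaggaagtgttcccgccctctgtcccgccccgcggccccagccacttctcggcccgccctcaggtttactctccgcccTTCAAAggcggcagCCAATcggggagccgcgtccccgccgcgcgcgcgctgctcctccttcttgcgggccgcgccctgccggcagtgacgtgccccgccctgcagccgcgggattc
CEP162: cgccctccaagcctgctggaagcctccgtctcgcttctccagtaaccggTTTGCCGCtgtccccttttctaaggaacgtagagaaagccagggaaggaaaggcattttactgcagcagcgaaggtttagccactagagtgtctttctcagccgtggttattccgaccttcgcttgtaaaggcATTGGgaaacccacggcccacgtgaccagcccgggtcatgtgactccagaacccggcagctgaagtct
CEP126: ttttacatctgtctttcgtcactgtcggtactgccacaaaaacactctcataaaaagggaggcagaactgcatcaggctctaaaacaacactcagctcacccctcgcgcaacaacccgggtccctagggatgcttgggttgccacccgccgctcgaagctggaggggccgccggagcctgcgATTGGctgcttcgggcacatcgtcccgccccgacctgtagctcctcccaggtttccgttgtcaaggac

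PLK4 held none of these words in its window. CEP55 held a CHR on the minus strand that starts 116 bases before the transcription start and a CCAAT on the plus strand at 102 bases. CEP162 held an E2F word at 201 bases and a CCAAT on the minus strand at 68 bases, and CEP126 held a CCAAT on the minus strand at 68 bases. Of the 56 genes, 49 had an entry in the table of starts. A CHR was present in 16.3% of them and in 14.3% of all 27305 windows, a CCAAT in 42.9% and 33.1%, and an E2F word in 6.12% and 2.86%. Among the 28 genes with an entry that were called lower with Ento+AZD, the shares were 17.9%, 42.9% and 7.14%, and among the 19 other tested genes 15.8%, 42.1% and 5.26%. The shares of both groups thus lay close together, while 63.6% of 11 markers of cycling cells held a CHR and 90.9% a CCAAT. The CHR shares rest on 5 of these 28 and 3 of these 19 genes, and the E2F shares on 2 and 1. Some windows, such as those of STIL and CEP152, lie wholly within annotated exons. A match is a string of letters and does not show that a factor binds there.

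LRRCC1 was measured at 15.6, 10.9 and 19.8 CPM with DMSO, at 8.28, 4.504 and 11.3 CPM with Ento, at 10.3, 3.58 and 8.81 CPM with AZD, and at 3.62, 1.33 and 4.57 CPM with Ento+AZD (replicates 1, 2 and 3 in each case). All 3 libraries with Ento+AZD lay below all 3 with DMSO, and replicate 2 was the lowest of every group. Within the replicate numbers, the level with Ento+AZD was 23.2%, 12.3% and 23.0% of that with DMSO. With AZD alone it was 65.8%, 33.0% and 44.4%, and with Ento alone it was between 41.5% and 56.7%. The fitted log2 fold changes were −2.36 for Ento+AZD, −1.08 for AZD and −0.995 for Ento. LRRCC1 showed the largest decrease of the set with Ento+AZD, which is how it was chosen, and no test is given for it.

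Of the other 55 genes, 52 passed the filter on low counts and were tested among 16835 genes. CEP70 (17 counts over 12 libraries), CEP295NL (11 counts) and CEP83-DT, a non-coding transcript beside CEP83 (73 counts), did not pass it and were not tested. A gene was called when the Benjamini-Hochberg adjusted p of edgeR's quasi-likelihood F-test, over all 16835 genes, was under 0.05. The model held the exposure and, as a block, the replicate number of the labels.

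With Ento+AZD against DMSO, 9 of 12 genes of centriole duplication were called lower. So were the 3 genes listed with the cap of the growing centriole and 7 of 8 genes of the augmin complex of the spindle. Of the 52 genes, 30 were called lower (57.7%), against 20.8% of all genes tested, and 3 were called higher, against 19.2% of all genes tested. At a log2 fold change under −1, 7 genes were called lower (13.5%), against 4.89% of all genes tested: PLK4, STIL, CCP110, CEP41, CEP55, HAUS4 and CEP57L1. The median log2 fold change of the 52 genes was −0.35, that of all genes tested 0.01. In 24 genes the 3 libraries with Ento+AZD all lay below the 3 with DMSO, which held for 20.0% of all genes tested. The 12 markers of cycling cells were called lower too, with a median log2 fold change of −1.49, and their part in the result was not tested. Without the replicate block 6 genes were called lower and 2 higher, and with replicate number 2 left out in all groups 26 and 3. The genes lower by more than 1 numbered 4 without DMSO replicate 2, and the higher genes 5 without DMSO replicate 3.

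**Figure D1:**
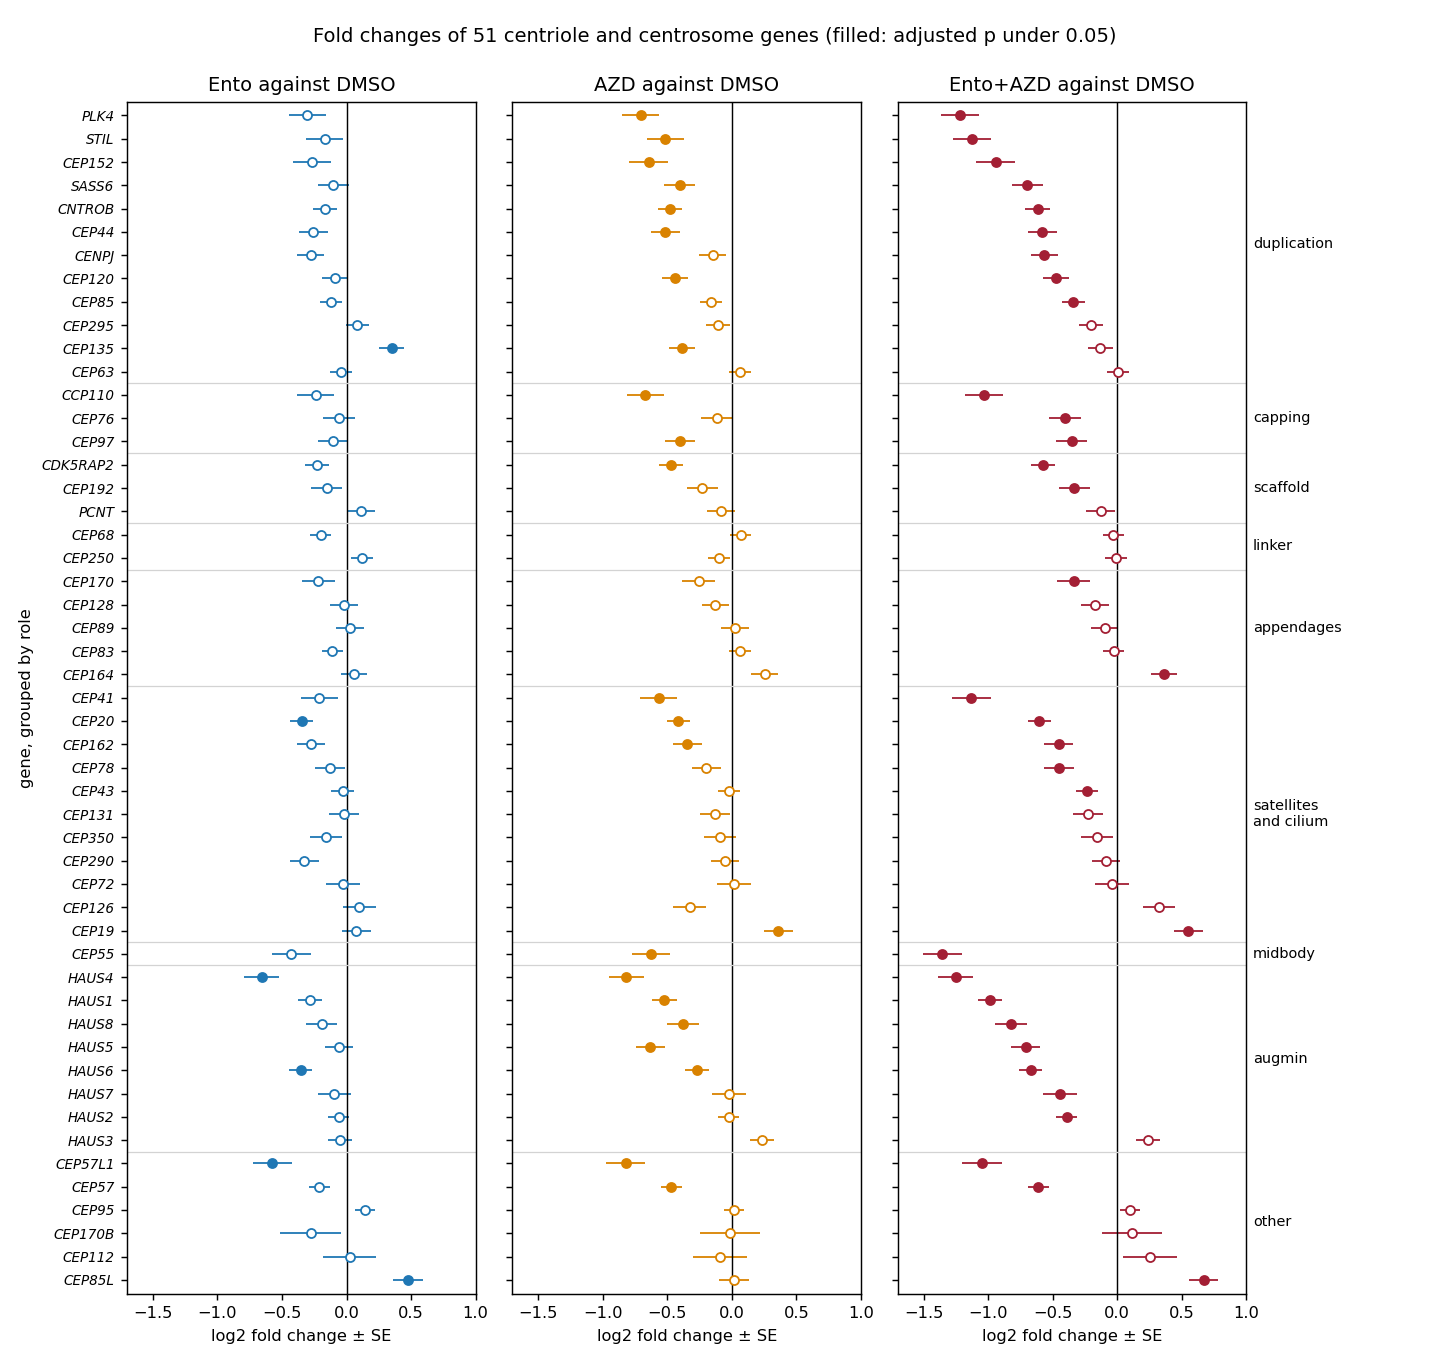
Log2 fold change (x axis, ± SE) of 51 centriole and centrosome genes (y axis, grouped by role and sorted by the change with Ento+AZD) for each exposure against DMSO. Filled points are called at an adjusted p under 0.05: 4 lower and 2 higher with Ento, 22 lower and 1 higher with AZD, 30 lower and 3 higher with Ento+AZD.

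Centriole duplication starts with the kinase PLK4, which phosphorylates STIL, and STIL then brings SASS6, the protein of the cartwheel on which a new centriole is built. PLK4 was measured at 55.3, 44.8 and 66.6 CPM with DMSO and at 29.2, 13.5 and 33.0 CPM with Ento+AZD, with 55.4, 24.4 and 63.7 CPM for Ento and 41.1, 23.6 and 39.9 CPM for AZD. The libraries with Ento+AZD and with AZD lay below all libraries with DMSO, whereas those with Ento overlapped them. PLK4 was 2.32-fold lower with Ento+AZD (log2 −1.22 ± 0.146 SE, edgeR adjusted p = 3.15e-05) and fell by 0.71 ± 0.142 on the log2 scale with AZD (adjusted p = 0.00406, edgeR).

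STIL was measured at 51.8, 48.2 and 75.9 CPM with DMSO, 59.8, 30.6 and 72.9 CPM with Ento, 44.3, 29.3 and 51.0 CPM with AZD, and 29.0, 14.9 and 41.6 CPM with Ento+AZD. It was 2.18-fold lower with Ento+AZD than with DMSO (log2 −1.12 ± 0.147, edgeR adjusted p = 5.70e-05), and no library of one group overlapped the other. With AZD alone STIL fell by 0.52 ± 0.143 on the log2 scale (edgeR adjusted p = 0.0198), although the libraries overlapped those with DMSO. This call was lost without DMSO replicate 2 (edgeR adjusted p = 0.0948), AZD replicate 3 (0.124) or the replicate block. SASS6 was 28.1, 26.4 and 41.5 CPM with DMSO and 19.8, 15.3 and 24.2 CPM with Ento+AZD, a fall by 0.70 ± 0.122 on the log2 scale (edgeR adjusted p = 0.000525). As with STIL, the groups did not overlap.

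In all, 9 of 12 genes of centriole duplication were called lower with Ento+AZD, against 20.8% of all genes tested, and 0 higher, against 19.2%. CEP152, which recruits PLK4 to the parent centriole, varied widely with DMSO (58.9, 49.98 and 109.0 CPM) and was 38.5, 27.0 and 45.4 CPM with Ento+AZD (log2 −0.94 ± 0.15, edgeR adjusted p = 0.000259). CEP63, its binding partner, stood at 56.3 ± 5.86 CPM with DMSO and 56.5 ± 5.60 CPM with Ento+AZD (SD, n = 3), with a log2 difference of 0.00 ± 0.0849 SE. The proteins that build and lengthen the centriole wall, CENPJ, CEP120, CEP44 and CNTROB, fell by 0.57, 0.48, 0.58 and 0.61 on the log2 scale, and CEP85, which binds STIL, by 0.34. CEP295, needed for the conversion of a new centriole into a centrosome, was not called (log2 −0.21 ± 0.0924). Its exons overlap by 14.0% with genes on the opposite strand, whose reads cannot be told apart here.

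CEP135, a protein of the cartwheel and the centriole wall, was called higher with Ento and lower with AZD. It was 39.8, 39.6 and 55.3 CPM with DMSO, 56.9, 51.4 and 62.5 CPM with Ento, 34.01, 34.6 and 33.2 CPM with AZD, and 40.8, 37.7 and 43.7 CPM with Ento+AZD. All libraries with AZD lay below all others, and those with Ento lay above those with AZD and with Ento+AZD. It rose by 0.35 ± 0.0979 on the log2 scale with Ento (edgeR adjusted p = 0.0404) and fell by 0.39 ± 0.0996 with AZD (adjusted p = 0.0141, edgeR). The call with Ento was lost without any single Ento library (edgeR adjusted p = 0.171, 0.111 and 0.11), without DMSO replicate 1 or 2, Ento+AZD replicate 1 or 3, the low-count filter or the replicate block, and with replicate number 2 left out in all groups. The call with AZD was lost without DMSO replicate 3 (edgeR adjusted p = 0.0705), AZD replicate 3 (0.125) or the replicate block. The difference between the agents, AZD against Ento, was −0.74 ± 0.0995 (edgeR adjusted p = 0.000192), and Ento+AZD did not pass the test against DMSO (log2 −0.13 ± 0.0990, edgeR adjusted p = 0.312).

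**Figure D2:**
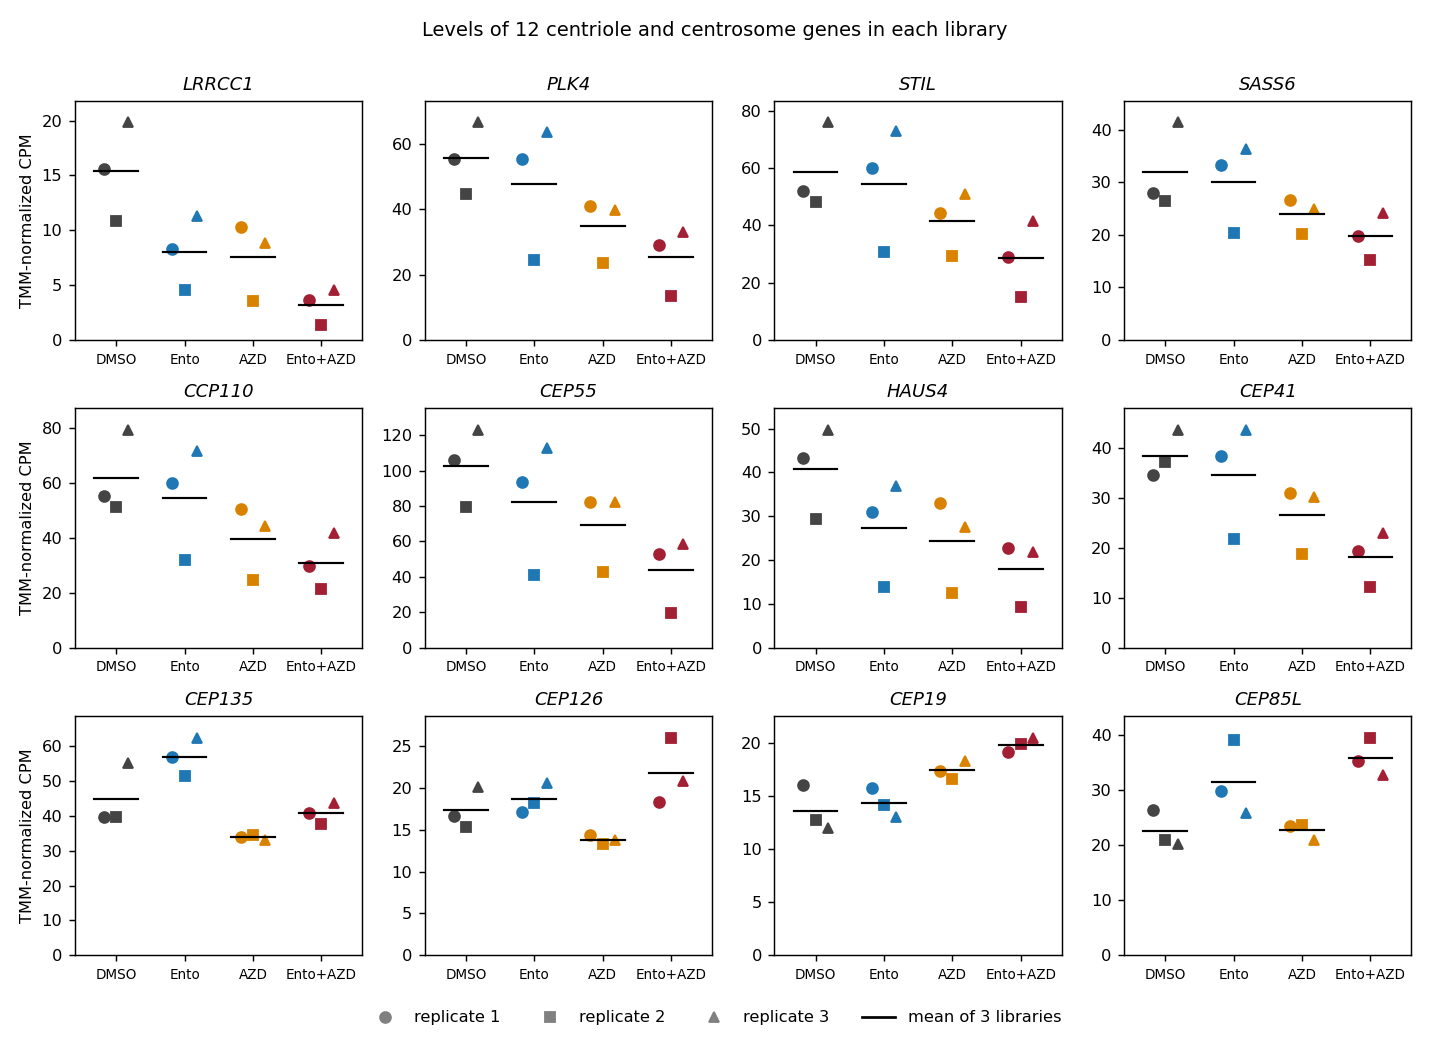
TMM-normalized CPM (y axis, from 0) of 12 centriole and centrosome genes in each of the 12 libraries by exposure (x axis), with marker shapes for the replicate number and a line at the mean of 3 libraries. PLK4, STIL, CCP110, CEP55, HAUS4 and CEP41 were lowest with Ento+AZD, whereas CEP19 and CEP85L were highest there and CEP135 was highest with Ento.

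The cap that ends the growing centriole is formed by CCP110 with CEP97, and CEP76 was listed with them. CCP110 was 55.3, 51.4 and 79.4 CPM with DMSO, 60, 31.8 and 71.8 CPM with Ento, 50.4, 24.7 and 44.2 CPM with AZD, and 29.7, 21.5 and 41.7 CPM with Ento+AZD. Neither AZD nor Ento+AZD overlapped DMSO. CCP110 was 2.05-fold lower with Ento+AZD (log2 −1.03 ± 0.147, edgeR adjusted p = 0.000105). All 3 listed genes were called lower with Ento+AZD, CEP76 by 0.41 and CEP97 by 0.35 on the log2 scale. CEP97 lost its call in 5 of the settings tried and CEP76 in 4.

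Of the pericentriolar scaffold, CDK5RAP2, which activates the γ-tubulin ring complexes that nucleate microtubules, fell from 118, 121 and 163 CPM with DMSO to 94.6, 72.8 and 103 CPM with Ento+AZD (log2 −0.58 ± 0.0928, edgeR adjusted p = 0.000277), with no overlap of the groups. CEP192, which recruits the mitotic kinases PLK1 and AURKA to the centrosome, was called lower by a smaller amount (log2 −0.33 ± 0.12, edgeR adjusted p = 0.0386) and was not called in 6 of the other settings, among them the one without DMSO replicate 3 (adjusted p = 0.235, edgeR). PCNT, the large scaffold protein pericentrin, was 82.3 ± 17.3 CPM with DMSO and 74.7 ± 8.89 CPM with Ento+AZD (SD, n = 3) and was not called. Neither CEP250 nor CEP68, the linkers that tie the pair of centrioles together between divisions, was called in any exposure against DMSO. CEP250 was 83.6 ± 5.43 CPM with DMSO and 83.2 ± 8.19 CPM with Ento+AZD, and CEP68 was 30.3 ± 1.64 and 29.7 ± 2.39 CPM (SD, n = 3).

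The appendages, by which the older centriole docks at membranes and holds microtubules, comprised 5 tested genes. With Ento+AZD 1 was called lower, against 20.8% of all genes tested, and 1 higher, against 19.2%. Both counts are near these shares. CEP164, a distal appendage protein required for cilia, was 48.2, 59.2 and 45.6 CPM with DMSO and 68.0, 58.9 and 69.0 CPM with Ento+AZD (log2 0.36 ± 0.102, edgeR adjusted p = 0.0112). The replicate 2 libraries of both groups were nearly equal, and the groups overlapped there. CEP164 lost its call without Ento+AZD replicate 1 (edgeR adjusted p = 0.0577) or 3 (0.0907), DMSO replicate 1 (0.0503) or the replicate block (0.0579). With replicate number 2 left out in all groups its edgeR adjusted p was 0.00149. CEP170, of the subdistal appendages, had an edgeR adjusted p of 0.0495 (log2 −0.34 ± 0.129) and lost its call in 9 settings. CEP83, CEP89 and CEP128 had log2 fold changes of −0.03, −0.10 and −0.17 and were not called.

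Among 12 genes of the centriolar satellites and the cilium, 5 were called lower and 1 higher with Ento+AZD. Of all genes tested, 20.8% were called lower and 19.2% higher. CEP41, which serves the glutamylation of tubulin in cilia, was 34.5, 37.1 and 43.5 CPM with DMSO, 38.4, 21.7 and 43.5 CPM with Ento, 30.9, 18.7 and 30.2 CPM with AZD, and 19.3, 12.2 and 23.0 CPM with Ento+AZD. Ento+AZD did not overlap DMSO and was 2.19-fold lower (log2 −1.13 ± 0.149, edgeR adjusted p = 6.02e-05). CEP20 fell by 0.60, CEP162 by 0.45, CEP78 by 0.45 and CEP43 by 0.24 on the log2 scale, and CEP43 lost its call in 13 of the settings tried.

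CEP19, which is needed for an early step of cilium formation, moved the other way. It was 16.1, 12.8 and 12.02 CPM with DMSO, 15.7, 14.2 and 13.1 CPM with Ento, 17.4, 16.6 and 18.3 CPM with AZD, and 19.2, 19.9 and 20.5 CPM with Ento+AZD. The libraries with Ento+AZD lay above all 9 others. CEP19 rose by 0.55 ± 0.111 on the log2 scale with Ento+AZD (edgeR adjusted p = 0.00151) and by 0.36 ± 0.112 with AZD (adjusted p = 0.0330, edgeR). The satellite and cilium genes CEP131, CEP290, CEP350, CEP72 and CEP126 were not called with Ento+AZD against DMSO, at log2 fold changes between −0.23 for CEP131 and 0.32 for CEP126.

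CEP55, which assembles the ESCRT machinery at the midbody for the final cut between daughter cells, showed the largest decrease of the tested genes. It was 106, 79.7 and 122.9 CPM with DMSO, 93.5, 40.8 and 113 CPM with Ento, 82.5, 42.8 and 82.5 CPM with AZD, and 52.6, 19.8 and 58.3 CPM with Ento+AZD. Replicate 2 was the lowest of each group, as it was for the markers of cycling cells. CEP55 was 2.56-fold lower with Ento+AZD than with DMSO (log2 −1.36 ± 0.153, edgeR adjusted p = 2.11e-05). It stayed past the threshold without any single library (largest edgeR adjusted p = 0.000212, without Ento+AZD replicate 1), but not without the replicate block (adjusted p = 0.0667, edgeR).

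The augmin complex (HAUS1 to HAUS8) binds to existing spindle microtubules and branches new ones from them. With Ento+AZD 7 of its 8 genes were called lower, against 20.8% of all genes tested. HAUS4 was 43.4, 29.3 and 49.7 CPM with DMSO, 30.9, 13.9 and 36.9 CPM with Ento, 32.9, 12.5 and 27.5 CPM with AZD, and 22.7, 9.34 and 21.8 CPM with Ento+AZD. It was 2.38-fold lower with Ento+AZD (log2 −1.25 ± 0.139, edgeR adjusted p = 1.92e-05), and every library of that group lay below those with DMSO. HAUS1 fell from 90.8, 60.8 and 78.5 CPM to 45.0, 28.5 and 43.8 CPM (log2 −0.99 ± 0.0949, edgeR adjusted p = 8.34e-06), the smallest adjusted p of the 52 genes. HAUS8, HAUS5, HAUS6, HAUS7 and HAUS2 fell by 0.82, 0.71, 0.67, 0.44 and 0.39 on the log2 scale. HAUS7 lost its call in 4 settings, with an edgeR adjusted p of 0.0906 without DMSO replicate 2, 0.0755 without Ento+AZD replicate 2 and 0.162 with replicate number 2 left out in all groups.

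HAUS3 was the exception among the augmin genes, at 34.3 ± 4.70 CPM with DMSO and 40.3 ± 2.63 CPM with Ento+AZD (SD, n = 3, log2 0.24 ± 0.0922, edgeR adjusted p = 0.0539). It was called higher with Ento+AZD relative to Ento (log2 0.29 ± 0.0928, edgeR adjusted p = 0.0396). That call was lost without any single Ento library (edgeR adjusted p = 0.064, 0.164 and 0.133), AZD replicate 2, or Ento+AZD replicate 2 or 3. It was also lost without the low-count filter or the replicate block, and with replicate number 2 left out in all groups (edgeR adjusted p = 0.295). Some augmin genes have pseudogene copies that were counted too: HAUS6P1 and HAUS6P3 held 14.7% and 11.5% as many counts as HAUS6, and HAUS1P1 and HAUS1P2 held 2.69% and 2.72% as many as HAUS1. How far such copies affect the values of HAUS6 and HAUS1 is not known, because the treatment of reads that match several genes is not given. The exons of HAUS2 overlap by 16.5% with a gene on the opposite strand.

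Outside these roles, CEP57 and CEP57L1, related proteins that bind pericentriolar material and microtubules, were called lower with Ento+AZD and CEP85L higher. CEP57L1 was low throughout, at 11.96, 7.42 and 13.4 CPM with DMSO and 4.84, 4.67 and 5.98 CPM with Ento+AZD (log2 −1.05 ± 0.155, edgeR adjusted p = 0.000146). CEP57 fell from 88.2 ± 11.6 to 57.4 ± 5.04 CPM (SD, n = 3, log2 −0.61 ± 0.0817, edgeR adjusted p = 6.65e-05), and 20.9% of its exons overlap with MTMR2 on the opposite strand. In both genes the 2 groups of libraries did not overlap.

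CEP85L, a centrosomal protein related to CEP85, was 26.3, 20.9 and 20.1 CPM with DMSO, 29.7, 39.1 and 25.7 CPM with Ento, 23.5, 23.7 and 20.8 CPM with AZD, and 35.2, 39.5 and 32.7 CPM with Ento+AZD. The libraries with Ento+AZD lay above all those with DMSO and with AZD. It rose by 0.48 ± 0.115 on the log2 scale with Ento (edgeR adjusted p = 0.0206) and by 0.67 ± 0.115 with Ento+AZD (adjusted p = 0.000440, edgeR), whereas AZD gave 0.01 ± 0.116. The call with Ento was lost without DMSO replicate 2 (edgeR adjusted p = 0.0816), DMSO replicate 3 (0.0539), Ento replicate 2 (0.154) or the replicate block, and with replicate number 2 left out in all groups (0.227). Relative to AZD it rose by 0.66 ± 0.115 with Ento+AZD (edgeR adjusted p = 0.00417). The other genes outside these roles, CEP95, CEP112 and CEP170B, were not called in any exposure against DMSO and had log2 fold changes of 0.10, 0.25 and 0.11 with Ento+AZD.

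With AZD against DMSO, 22 of the 52 genes were called lower (42.3%), against 12.7% of all genes tested, and CEP19 was called higher, against 9.57% of all genes tested. Of the 12 duplication genes 8 were called lower (PLK4, STIL, SASS6, CEP152, CEP135, CEP120, CEP44 and CNTROB). Of the 3 genes listed with the cap these were CCP110 and CEP97, and of the 8 augmin genes HAUS1, HAUS4, HAUS5, HAUS6 and HAUS8. CEP57L1 fell by 0.82, HAUS4 by 0.82, PLK4 by 0.71 and CCP110 by 0.67 on the log2 scale. The median log2 fold change of the 52 genes was −0.18. All 12 markers of cycling cells were called lower here as well (median −0.78), and their part in the result was not tested. The count depended on single libraries, with 8 genes called lower without AZD replicate 3, and it was 0 without the replicate block. CEP19 was not called without DMSO replicate 2, DMSO replicate 3, Ento replicate 1, AZD replicate 2 or AZD replicate 3, and the genes called higher numbered 2 without Ento+AZD replicate 2.

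With Ento against DMSO, 4 genes were called lower, against 3.66% of all genes tested, and 2 higher, against 4.66% of all genes tested. The 4 lower genes were HAUS4 (log2 −0.66 ± 0.135, edgeR adjusted p = 0.00923), CEP57L1 (log2 −0.57 ± 0.148), HAUS6 (log2 −0.35 ± 0.0898) and CEP20 (log2 −0.35 ± 0.0888), and the higher ones were CEP135 and CEP85L. No gene of the cap, the scaffold, the linker or the appendages was called. The 12 markers of cycling cells had a median log2 fold change of −0.39 and none was called by edgeR, although all 12 fitted values were lower. Their median log2 ratios were 0.02, −1.02 and −0.06 in replicates 1, 2 and 3, so the decrease was mostly that of replicate 2. The count of lower genes was 0 without Ento replicate 1 or Ento replicate 2, 2 without DMSO replicate 3, 7 without DMSO replicate 1, and 0 without the replicate block. That of higher genes was 0 without DMSO replicate 2 or Ento replicate 2, and 1 without any one of DMSO replicates 1 and 3, Ento replicates 1 and 3, and Ento+AZD replicates 1 and 3. In replicate 1, 16 of the 52 genes were lower with Ento than with DMSO, in replicate 2 this held for 43 and in replicate 3 for 37. Of all genes tested, 48.8%, 48.4% and 48% were lower in replicates 1, 2 and 3.

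Relative to Ento alone, Ento+AZD had 20 genes called lower, against 12.2% of all genes tested, and 3 higher (CEP19, CEP164 and HAUS3), against 8.27% of all genes tested. The lower genes included 8 of the duplication list and 6 of the augmin list. STIL, CEP55, CEP41 and PLK4 fell by 0.95, 0.93, 0.92 and 0.91 on the log2 scale (edgeR adjusted p = 0.000828, 0.00108, 0.00104 and 0.000962). The count of lower genes was 13 without Ento replicate 3 and 0 without the replicate block. The count of higher genes was 0 without Ento replicate 3 or Ento+AZD replicate 3, and 1 without Ento replicate 1, Ento replicate 2 or AZD replicate 2.

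Relative to AZD alone, Ento+AZD had 9 genes called lower, against 6.04% of all genes tested: PLK4, STIL, CENPJ, CEP41, CEP55, HAUS1, HAUS2, HAUS6 and HAUS8. CEP55 fell by 0.73 ± 0.152 on the log2 scale (edgeR adjusted p = 0.00889), STIL by 0.61 ± 0.147 (adjusted p = 0.0187, edgeR) and PLK4 by 0.51 ± 0.147 (adjusted p = 0.0382, edgeR). CEP85L and CEP126 were called higher, against 5.85% of all genes tested. CEP126, a protein of satellites and the ciliary base, was 14.3, 13.3 and 13.8 CPM with AZD and 18.3, 26.0 and 20.9 CPM with Ento+AZD, without overlap (log2 0.65 ± 0.129, edgeR adjusted p = 0.00704). The count of lower genes fell to 1 without AZD replicate 1, 2 without Ento+AZD replicate 1, 3 without AZD replicate 2, 4 without Ento+AZD replicate 2, 5 with replicate number 2 left out in all groups, and 0 without the replicate block.

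The single agents were also set against each other. With AZD relative to Ento, 7 genes were lower (CEP120, CEP126, CEP135, CEP57, CEP85L, CNTROB and HAUS5), against 8.99% of all genes tested, and CEP68 and HAUS3 were higher, against 5.73% of all genes tested. HAUS5 was 33.4, 24.3 and 42.6 CPM with Ento and 24.3, 17.4 and 24.8 CPM with AZD (log2 −0.57 ± 0.111, edgeR adjusted p = 0.00311). CEP68 was 25.7, 27.6 and 25.8 CPM with Ento and 30.7, 31.3 and 33.3 CPM with AZD, without overlap (log2 0.27 ± 0.0828, edgeR adjusted p = 0.0427). The calls of CEP68 and HAUS3 were lost in 10 and 11 settings besides the one without the replicate block. The count of lower genes was 2 without AZD replicate 2 or AZD replicate 3, 3 without Ento replicate 1 or Ento replicate 3, and 11 without DMSO replicate 2. Neither higher gene was called without any one of the Ento or AZD libraries, or without Ento+AZD replicate 1 or 3.

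Whether the change with both agents differed from the sum of the single-agent changes on the log2 scale was tested as an interaction. By edgeR, 0 of the 52 genes and 0% of all genes tested were called in either direction, and 2 of the 52, CEP126 and HAUS2, had an unadjusted p under 0.05. DESeq2's Wald test also called 0 of the 52 genes, with 3 at an unadjusted p under 0.05, and 7 genes of the whole table. The interaction was 0.55 ± 0.181 for CEP126 (edgeR adjusted p = 0.444) and −0.30 ± 0.117 for HAUS2 (adjusted p = 0.465, edgeR). Without DMSO replicate 2, CEP41 was the 1 gene of the 52 that was called (log2 −0.61, edgeR adjusted p = 0.0489), beside 213 in the whole table. For PLK4 and STIL the interaction was −0.21 ± 0.203 and −0.44 ± 0.204.

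The comparisons with DMSO share the DMSO libraries, so they are set side by side without a test of their likeness. The summed share of the 56 genes in all counts includes LRRCC1, which was chosen by its level with Ento+AZD. It was 0.263 ± 0.0454% with DMSO, 0.235 ± 0.0412% with Ento, 0.212 ± 0.0276% with AZD and 0.193 ± 0.0180% with Ento+AZD (SD, n = 3). Within the replicate numbers, 36, 41 and 45 of the 52 genes were lower with Ento+AZD than with DMSO, at median log2 ratios of −0.26, −0.34 and −0.44 in replicates 1, 2 and 3. Of all genes tested, 48.8%, 50.5% and 48.9% were lower there. The markers of cycling cells had median log2 ratios of −1.03, −2.43 and −1.15 in the same replicates. By these medians the markers fell most in replicate 2 and the 52 genes in replicate 3, and the relation between both was not tested. Of the 7 genes lower by more than 1, 6 were lowest relative to DMSO in replicate 2, at 24.8% for CEP55, 30.2% for PLK4, 30.8% for STIL, 31.9% for HAUS4, 32.9% for CEP41 and 41.9% for CCP110, and at 43.9% to 56% in replicates 1 and 3. CEP57L1 went the other way, with 40.5%, 62.9% and 44.6% of DMSO in replicates 1, 2 and 3.

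Levels were compared between genes per kilobase (kb) of the representative MANE Select transcript. HAUS1 was the most abundant with DMSO, at 71.6 ± 14.1 CPM per kb, followed by CEP20 (39.6 ± 8.27), CEP55 (38.7 ± 8.20), CEP57 (28.1 ± 3.71) and HAUS4 (25.7 ± 6.58). CEP20 and CEP55 did not differ beyond their spread. PLK4 (14.5 ± 2.85 CPM per kb), CCP110 (11.8 ± 2.88) and STIL (11.7 ± 3) were 13th, 17th and 18th of 56, within their spread of each other. LRRCC1 was 43rd with 4.14 ± 1.21 CPM per kb. CEP170B was the lowest of the genes past the filter, with 0.396 ± 0.0591 CPM per kb. With Ento+AZD, HAUS1 was still at 36.5 CPM per kb, CEP55 at 16.4 CPM per kb and LRRCC1 at 0.852 CPM per kb.

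**Figure D3:**
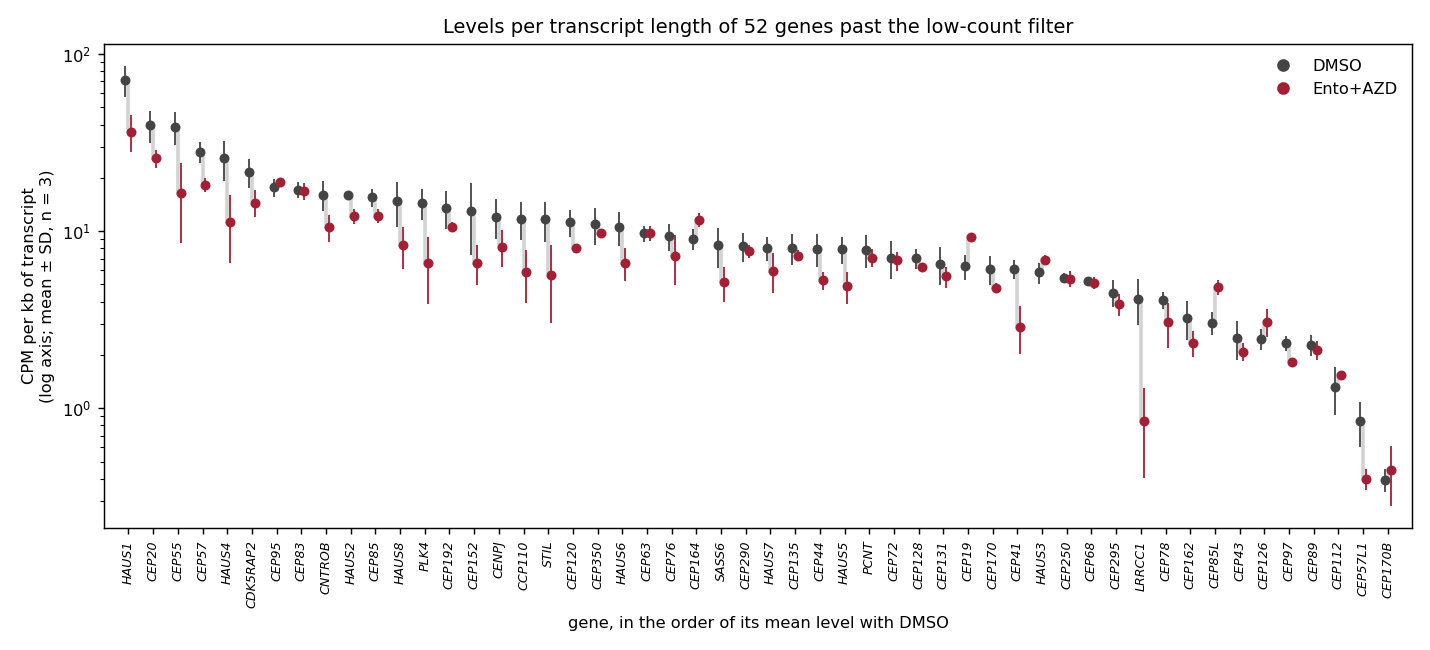
CPM per kb of transcript (y axis, log scale, mean ± SD, n = 3) of 52 genes past the low-count filter, in the order of their level with DMSO (x axis), with DMSO in grey and Ento+AZD in red. The levels with DMSO range from 0.396 CPM per kb for CEP170B to 71.6 CPM per kb for HAUS1.

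A list of 50 further genes of the centrosome (γ-tubulin complexes, mitotic kinases, satellite and appendage proteins) was chosen for comparison, of which 48 were tested. With Ento+AZD against DMSO 28 of the 48 were called lower (58.3%, against 20.8% of all genes tested) and 5 higher (10.4%, against 19.2%). The 5 genes called at a log2 fold change under −1 (10.4%, against 4.89% of all genes tested) were CCDC15 (−1.72), the mitotic kinases PLK1 (−1.62), AURKA (−1.57) and NEK2 (−1.53), and the spindle pole protein ASPM (−1.22). PLK1 and AURKA also stand in the list of cycling markers. PLK1 was 166, 139 and 215 CPM with DMSO and 80.2, 22.4 and 96.4 CPM with Ento+AZD, so that the groups did not overlap (edgeR adjusted p = 8.72e-05). CCDC15, a centriole protein, was 7.67, 5.91 and 10.45 CPM with DMSO and 2.84, 1.38 and 3.22 CPM with Ento+AZD (edgeR adjusted p = 4.47e-05). The 5 higher genes were AKAP9, CCDC14, CETN2, TUBGCP5 and TUBGCP6. With AZD against DMSO 19 of the 48 were called lower (39.6%, against 12.7% of all genes tested) and 5 higher (10.4%, near the 9.57% of all genes tested). With Ento 5 were called lower (10.4%, against 3.66%) and 0 higher (against 4.66%) by edgeR. TUBGCP3, which forms γ-tubulin complexes, was called lower by each of the 3 exposures, at log2 fold changes of −0.43 with Ento, −0.67 with AZD and −0.92 with Ento+AZD.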

How the data were processed

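Per the labels and the paper's methods, the authors enriched polyadenylated RNA, prepared libraries with the NEBNext Ultra II RNA kit, produced single-end reads, removed adapters with Trim Galore and CutAdapt, mapped the reads to the build GRCh38.p13 and used Rsubread for counting. Their deposited counts, 1 whole number for each symbol and library, are not normalized. The strand setting, the treatment of reads that match several genes and the annotation release are not given in the sources used here, so genes with near-identical copies or with exons on the opposite strand are uncertain. A second deposited table of normalized values was not used, and 0 columns belonged to no sample.

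Groups and replicate numbers were taken from the labels. The software was R 4.3.3 with edgeR 4.0.16 and limma 3.58.1. filterByExpr by group (minimum count 10, minimum total 15) left 16835 of 46863 symbols, and TMM factors were used. One model of all 12 libraries (3 per group, 18121993 to 24675830 counts) held exposure and replicate number without an intercept, the replicate number standing in for the batch term of the paper's methods. Each contrast received a quasi-likelihood F-test, with Benjamini-Hochberg adjustment over all genes tested and a threshold of 0.05. SEs were derived from the log2 fold change and its F statistic. CPM are normalized by TMM. The differences between libraries of 1 group exceeded sampling noise (chi-square per degree of freedom 8.57 to 51.8).

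The replicate numbers were checked as pairs by correlating deviations from group means. Correlations were 0.213 to 0.703 for libraries sharing a number (18 pairs) and −0.627 to 0.325 for others (36 pairs), so the numbers were treated as pairing the libraries.

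The genes and lists were chosen with earlier results of these data known. Named in the text are LRRCC1, all genes of the duplication, cap, scaffold, linker, appendage, midbody and augmin lists, of the other genes those called with an absolute log2 fold change over 1 or among the 5 smallest adjusted p of a contrast and the highest and lowest expressed, and of the further list those called beyond 1. Other names serve to spell out counts of calls or complete a role list, and TUBGCP3 was chosen after its values were seen. Alternatives were no replicate number, DESeq2's size factors, DESeq2 1.42.0 (Wald test), no low-count filter and leaving out each library, with replicate number 2 left out in all groups added after seeing the data. The tests were tried on simulated counts before use. Positions and transcript lengths come from GENCODE v44, and starts from RefSeq (GRCh38.p14, 250 bases before the start). CENPJ, CEP170B, CEP250, CEP295NL, CEP78 and LRRCC1 were among the genes without an entry in the starts used. One gene that enters the counts is not reported here by name and is not drawn in the figures of single genes.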

Additional observations from a re-analysis of the deposited data

How the results depend on the processing

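Of 105 called values of the 52 genes over all contrasts, 103 kept their call with DESeq2's size factors, 100 with DESeq2's Wald test, 99 without the low-count filter and 76 with replicate number 2 left out in all groups, and none was reversed in any of these or without a single library. Without the replicate block 9 kept it. Without the replicate block the counts were 0 lower and 0 higher for Ento and for AZD against DMSO, 6 lower and 2 higher for Ento+AZD against DMSO, 0 and 0 for Ento+AZD against Ento and against AZD, and 1 lower and 0 higher for AZD against Ento. The libraries of one number deviated together from their group means, which that model counts as spread. With replicate number 2 left out in all groups, 0 lower and 0 higher were called for Ento, 0 higher for AZD, 5 lower for Ento+AZD against AZD and 0 higher for AZD against Ento, and 3 were lower by more than 1 with Ento+AZD against DMSO. For AZD against Ento, 1 higher gene was called with DESeq2's size factors and 0 with the Wald test. Without the low-count filter 1 higher gene was called for Ento against DMSO and 1 for Ento+AZD against Ento. The cause was not tested.

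Without each library in turn, lower calls ranged from 0 to 7 for Ento, 8 to 23 for AZD and 24 to 33 for Ento+AZD against DMSO, 13 to 25 for Ento+AZD against Ento, 1 to 11 for Ento+AZD against AZD and 2 to 11 for AZD against Ento. Higher calls ranged from 0 to 2, 0 to 2, 2 to 5, 0 to 3, 2 to 3 and 0 to 3 in the same order. Lower calls beyond a log2 fold change of −1 with Ento+AZD ranged from 4 (without DMSO replicate 2) to 8, and calls of the interaction from 0 to 1. The scaling moved the median of all genes by less than 0.02 in every contrast. With 1 count worth 0.0393 to 0.0564 CPM, depth limits CEP70, CEP295NL and CEP83-DT, whose levels could not be compared.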

Other observations

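Copies of the set's genes that the choice by name left out were counted as well. HAUS6P1 (2081 counts over the 12 libraries) and HAUS6P3 (1627 counts) had log2 fold changes of −0.68 and −0.71 with Ento+AZD against DMSO, next to −0.67 for HAUS6, and CEP170P1 (768 counts) had −0.52 next to −0.34 for CEP170 and was not called (edgeR adjusted p = 0.0578). HAUS1P1 (417 counts) had −1.15 and HAUS1P2 (423 counts) −0.47, next to −0.99 for HAUS1, and HAUS1P2 was not called (edgeR adjusted p = 0.126). The antisense RNA CEP250-AS1 (970 counts, 4.47% of the counts of CEP250) was called higher with Ento+AZD (log2 0.96, edgeR adjusted p = 0.00108), whereas CEP250 was not called (log2 −0.01). These genes were chosen after their values were seen.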
